A study of Mus musculus with 7 samples.

Results

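The genes described here are 31 genes that mark enteroendocrine cells, the hormone-releasing cells of the gut epithelium, read out in Paneth cells (PCs) sorted from mice. They were given as a list of symbols, and all 31 were matched to 1 Ensembl identifier each among the 55414 identifiers counted. By role, 10 are transcription factors, 12 encode hormones or the enzymes and transporter of amine synthesis, and 9 belong to the secretory granule. All mice were of the C57BL/6J strain and no genotype other than the strain is given. One group received phosphate-buffered saline (PBS, the control, 3 libraries) and the other tumour necrosis factor (TNF, an inflammatory cytokine, 4 libraries). The small intestine was taken 15 h after injection and PCs were purified with a cell sorter, with a separate mouse behind each library. The sources used here do not give the dose, the age and sex of the mice, the sorting antibodies or the intestinal segment.

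Enteroendocrine cells arise from crypt progenitors that switch on the transcription factor Neurog3 for a short time, after which Neurod1, Insm1, Nkx2-2, Pax4, Pax6, Isl1, Rfx6, Fev and Lmx1a guide the choice between hormone programs. Each cell stores peptide hormones, or serotonin, in dense-core granules built from chromogranins and secretogranins, and convertases cut the prohormones inside these granules. Hormone use also depends on position: within the small intestine, Gip, Ghrl, Cck and Sct are known mainly from the proximal part, whereas Gcg, Pyy and Nts are known mainly from the distal part. PCs are a separate secretory lineage that shares the crypt and the granular way of secretion.

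Enteroendocrine transcripts were rare in these sorted cells and most of those that could be tested were lower after TNF. Nkx2-2 fell 64.5-fold, Ddc, the decarboxylase of serotonin synthesis, fell 16.5-fold, and Slc18a1, a granule transporter of amines, fell 3.50-fold. Against this direction, Tac1, which encodes substance P, rose 24.4-fold, and Scg5, which encodes the granule chaperone 7B2, rose 10.2-fold. Tested with edgeR at a Benjamini-Hochberg adjusted p under 0.05, 24 members passed the filter on low counts, of which 15 were lower, 2 were higher and 7 were not called. For comparison, 30.1% of the 14329 genes tested in the whole table were lower and 29.5% were higher (59.6% in either direction). The median log2 fold change was -1.86 over the 24 members and 0.0017 over all genes tested. The other 7 members (Pax4, Fev, Lmx1a, Nts, Pyy, Scg3 and Pcsk1n) had too few counts for the test. A member passes the filter when enough libraries of either group carry it, so these counts describe the list and are no test of it. Without PBS replicate 1 the test called 10 members lower, without PBS replicate 2 it called 11, and without PBS replicate 3 it called 19. As the libraries are bulk RNA, fewer cells that carry a transcript and less of it per cell cannot be told apart.

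Values are CPM, the usual counts-per-million unit, on library sizes scaled with TMM (the trimmed mean of M-values). The libraries held 15511455 to 19193721 counts, so 3 counts, the limit that a count of 0 allows, stood for 0.153 to 0.196 CPM. Such limits cover counting error only. Of the 6 PC markers Lyz1, Defa24, Mmp7, Ang4, Itln1 and Clps, the summed level was 164100 to 263600 CPM after PBS and 158000 to 283700 CPM after TNF. The markers did not all stay level. Clps was lower (log2 fold change -2.27, edgeR adjusted p = 0.00263) and Mmp7 was higher (0.88, 0.00223). The other 4 were not called, where 59.6% of all genes were called in either direction. The 31 enteroendocrine genes summed to 208 to 379.7 CPM after PBS and 108.4 to 144.9 CPM after TNF, so even in the controls they were a minor share of the RNA. In the remaining text, values of every library are given in the order PBS replicates 1 to 3 and TNF replicates 1 to 4. Fold changes are those fitted by edgeR, with their standard error (SE) on the log2 scale.

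**Figure D1:**
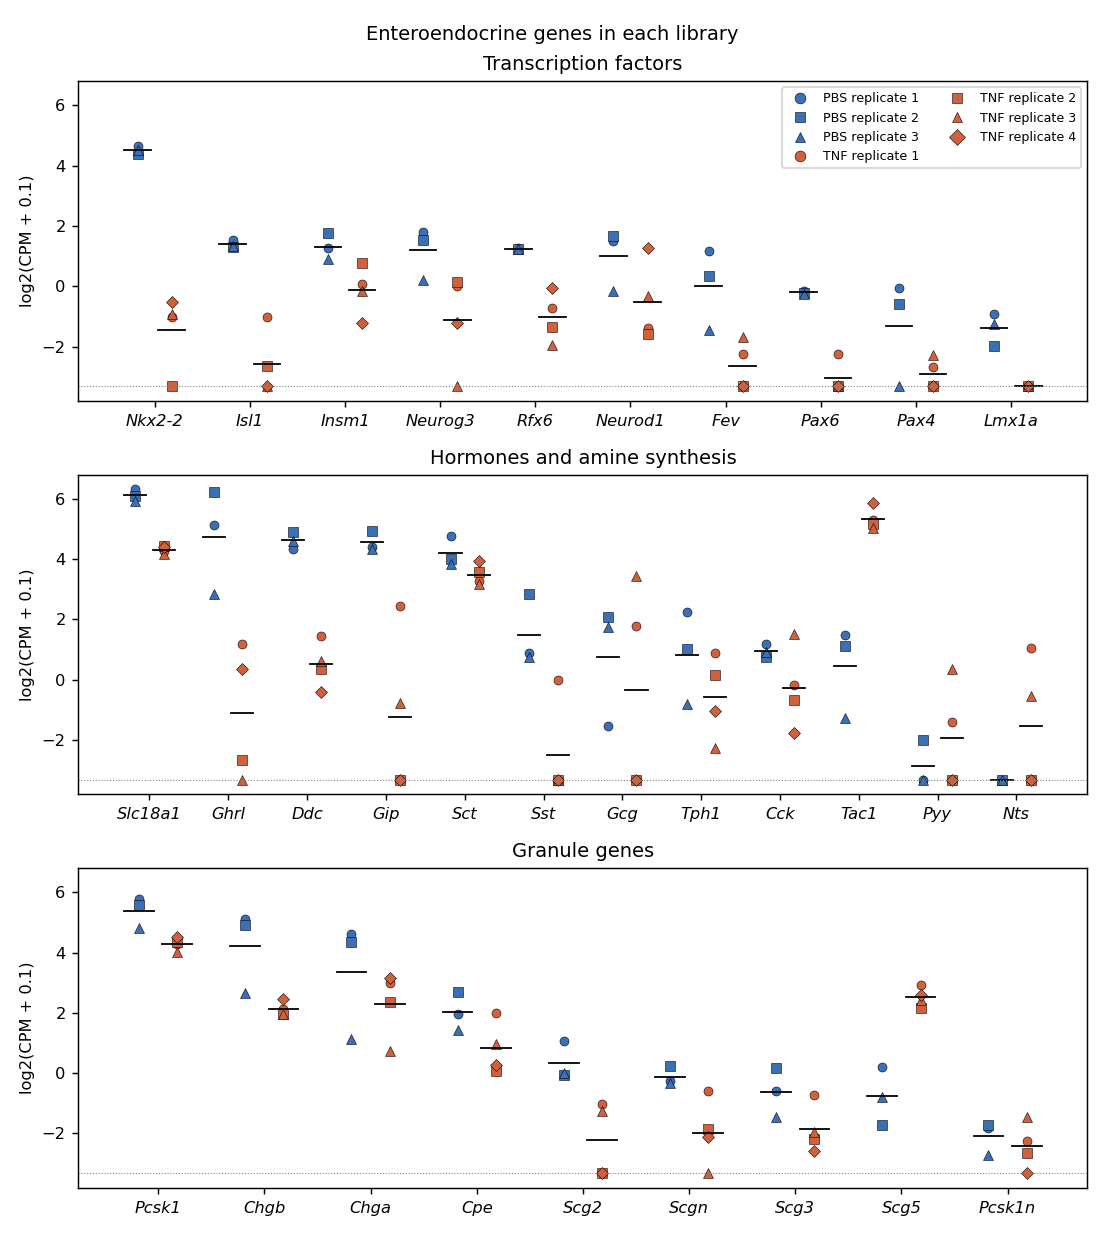
Level of all 31 enteroendocrine genes in each library, as log2(CPM + 0.1), with 1 marker per library (blue, 3 PBS; orange, 4 TNF), a short line at the group mean, and a dotted line at 0 counts. The groups of Nkx2-2, Ddc and Slc18a1 stand apart, with little spread within both groups for Slc18a1, Tac1 and Scg5 are the 2 genes with all TNF libraries above all PBS libraries, and many TNF values of Gip, Sst and Gcg lie on the dotted line.

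The transcription factors were examined first. All 7 factors that passed the filter had a negative log2 fold change and 6 of them fell, with the TNF libraries below the PBS libraries in each of these 6 genes. Across the whole table, 30.9% of genes had all TNF libraries below all PBS libraries. Their summed level, all 10 factors included, went from 32.5 to 42.9 CPM after PBS to 2.41 to 4.39 CPM after TNF, and in PBS libraries most of it was Nkx2-2.

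Nkx2-2 (ENSMUSG00000027434, GRCm39 chromosome 2, 147019466 to 147036163) is a homeobox factor of enteroendocrine and pancreatic islet cells. Its level was 25.2, 20.9 and 22.9 CPM after PBS and 0.392, 0, 0.428 and 0.589 CPM after TNF. The PBS libraries were alike and the TNF libraries were close to the limit of detection, with 1249 counts in the PBS group and 24 in the TNF group. On the log2 scale it fell by 6.01 ± 0.38 (SE), with an edgeR adjusted p of 3.28e-08. It kept its direction and its call under all 14 alternative settings.

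Isl1, a LIM-homeobox factor of hormone-producing cells, had 2.78, 2.39 and 2.44 CPM after PBS and 0.392, 0.0589, 0 and 0 CPM after TNF. Its fall of 4.38 ± 0.80 on the log2 scale (edgeR adjusted p = 0.000303) rested on 138 counts after PBS and 8 after TNF, 7 of them in TNF replicate 1, and the fitted change was -6.57 without that library. Rfx6, a factor needed for the differentiation of hormone cells, was at 2.29, 2.24 and 2.23 CPM and fell to 0.504, 0.295, 0.161 and 0.851 CPM (-2.32 ± 0.55, edgeR adjusted p = 0.0022). These genes were low but even among the PBS libraries. Pax6, a paired-box factor of the same lineage, had 13, 15 and 14 counts after PBS and only 2 counts after TNF, both in TNF replicate 1. The ratio of PBS to TNF was 26.4 (95% exact binomial interval 6.87 to 225, counting error only), and the edgeR adjusted p was 0.00116. The fitted log2 change was -4.43 ± 0.95, and -6.77 without TNF replicate 1, where no TNF count is left. Elp4, which overlaps Pax6 over 3393 of its 16047 exon bases on the opposite strand, had a log2 fold change of -0.53 (edgeR adjusted p = 0.0399), and without known strand use the reads of both genes cannot be told apart.

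The early factors varied more. Neurog3, which starts the lineage, had 3.40, 2.80 and 1.06 CPM after PBS and 0.896, 1.00, 0 and 0.327 CPM after TNF, so the lowest PBS library lay close to the highest TNF library. It fell by 2.11 ± 0.77 on the log2 scale (edgeR adjusted p = 0.0302), but was no longer called without PBS replicate 1 (-1.78, adjusted p = 0.113), PBS replicate 2 (-1.99, 0.0821) or TNF replicate 4 (-1.94, 0.0695). Fam241b shares 797 of the 1905 exon bases of Neurog3 on the opposite strand and had a log2 fold change of 0.08 (edgeR adjusted p = 0.709). Insm1, a zinc-finger factor that acts after Neurog3, had 2.29, 3.31 and 1.75 CPM after PBS and 0.951, 1.59, 0.803 and 0.327 CPM after TNF. It fell by 1.40 ± 0.51 on the log2 scale (edgeR adjusted p = 0.0291), and the call, though not the direction, was lost without PBS replicate 1 (-1.45, adjusted p = 0.0577), PBS replicate 2 (-1.12, 0.142), TNF replicate 3 (-1.35, 0.0622) or TNF replicate 4 (-1.14, 0.0585).

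Neurod1, a direct target of Neurog3, was at 2.72, 3.05 and 0.795 CPM after PBS and at 0.280, 0.236, 0.696 and 2.29 CPM after TNF. The groups overlapped, since PBS replicate 3 was low and TNF replicate 4 was high, and the log2 fold change of -1.34 ± 0.73 did not pass the test (edgeR adjusted p = 0.131). Without TNF replicate 4 it did (-2.41, adjusted p = 0.00795), and with no filter on low counts as well (-1.34, 0.0374). The other 3 factors were below the filter. Fev, the factor of serotonin cells, had 35, 23 and 5 counts after PBS and 2, 0, 4 and 0 after TNF, while Pax4 had 25 PBS counts against 3 TNF counts, which is a ratio of 10.5 (95% exact binomial interval 3.20 to 54.2) that ran from 6.55 without PBS replicate 1 to 22.9 without TNF replicate 3. Lmx1a, which acts in serotonin cells as well, had 16 PBS counts and 0 TNF counts, so it was at least 6.71-fold lower against a floor of 3 counts over the TNF group. When no filter was applied, edgeR gave these genes adjusted p values of 0.000209, 0.0365 and 0.0139.

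**Figure D2:**
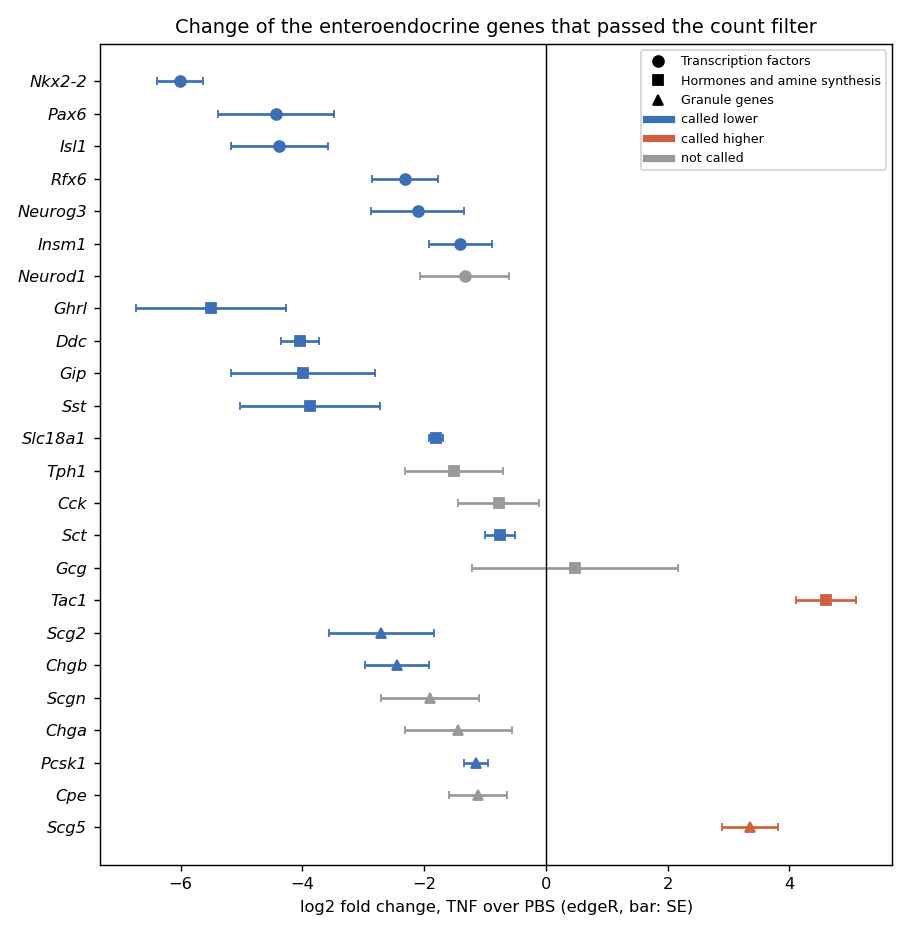
Fitted log2 fold change (TNF over PBS) of the 24 enteroendocrine genes that passed the count filter, with bars of 1 SE, grouped by role (marker shape) and coloured by call at an adjusted p under 0.05. The changes run from -6.01 for Nkx2-2 to 4.61 for Tac1, and Gcg has the widest bar.

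Among the genes of amine synthesis, those for the decarboxylase and the transporter were lower and the gene for the first enzyme was not called. Tph1 catalyses the limiting step of serotonin synthesis in the gut, Ddc the step after it, and Slc18a1 (also known as VMAT1) loads the amine into granules. For Ddc (ENSMUSG00000020182, GRCm39 chromosome 11, 11762602 to 11848150), the libraries held 20.03, 30.03 and 24.18 CPM after PBS and 2.63, 1.18, 1.45 and 0.654 CPM after TNF. All TNF libraries were far below the PBS libraries, and Ddc fell by 4.04 ± 0.32 (SE) on the log2 scale (edgeR adjusted p = 2.76e-07). Slc18a1 (ENSMUSG00000036330, GRCm39 chromosome 8, 69490135 to 69541887) had the highest mean CPM of the list after PBS (in PBS replicate 2, Ghrl was higher), with 79.9, 67.6 and 60.9 CPM, against 19.2, 21.3, 18.0 and 20.9 CPM after TNF. It fell by 1.81 ± 0.12 on the log2 scale (edgeR adjusted p = 3.28e-08), and its TNF values spread by only 1.56 CPM (SD, n = 4). Both genes kept their calls under all 14 alternatives. In contrast, Tph1 ranged from 0.477 to 4.64 CPM after PBS and from 0.107 to 1.74 CPM after TNF, with a log2 fold change of -1.52 ± 0.81 (edgeR adjusted p = 0.124). It passed without PBS replicate 3 (-2.01, adjusted p = 0.0292), without TNF replicate 1 (-2.21, 0.0377) or with no filter on low counts (-1.52, 0.0147), whereas without PBS replicate 1 the change was only -0.57 (adjusted p = 0.614).

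Of the hormones known from the proximal gut, Ghrl, Gip and Sct fell, in unequal degree, and Cck was not called. Ghrl encodes ghrelin, the appetite hormone of X cells, and had 34.9, 74.2 and 7.0 CPM after PBS against 2.18, 0.0589, 0 and 1.18 CPM after TNF. The PBS libraries differed 10.6-fold among themselves, yet the lowest of them stayed above the highest TNF library. The log2 fold change was -5.51 ± 1.23 (edgeR adjusted p = 0.0105), with -4.61 without PBS replicate 2 and -6.66 without TNF replicate 1. Gip, the incretin of K cells, had 20.8, 30.6 and 20.2 CPM after PBS and 5.37, 0, 0.482 and 0 CPM after TNF, so 96 of its 105 TNF counts lay in TNF replicate 1. Its fall of 3.99 ± 1.18 on the log2 scale passed the test (edgeR adjusted p = 0.0303), but the call was lost without PBS replicate 1 (-4.08, adjusted p = 0.0721), PBS replicate 2 (-3.77, 0.0937), PBS replicate 3 (-4.10, 0.0655) or TNF replicate 3 (-3.70, 0.061), with no filter on low counts (-3.99, adjusted p = 0.0621) and with DESeq2 (-4.05, 0.079). Without TNF replicate 1 it was -7.03 (adjusted p = 3.41e-06).

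Sct, which encodes secretin, the hormone of S cells that drives bicarbonate release, was the hormone that changed least among those called. Its level was 27.2, 15.8 and 14.2 CPM after PBS and 9.46, 11.9, 8.84 and 15.1 CPM after TNF, and the groups overlapped. The fall was 0.76 ± 0.24 on the log2 scale (edgeR adjusted p = 0.0163) and was not called without PBS replicate 1, the highest library (-0.41, adjusted p = 0.144). Cck, encoding cholecystokinin of I cells, had 2.16, 1.58 and 1.80 CPM after PBS and 0.784, 0.531, 2.73 and 0.196 CPM after TNF, with TNF replicate 3 above all PBS libraries. It was not called (-0.78 ± 0.66, edgeR adjusted p = 0.329), except without TNF replicate 3 (-1.86, adjusted p = 0.0165). Sst encodes somatostatin of D cells, an inhibitor of other hormone cells. It had 1.73, 7.03 and 1.59 CPM after PBS and 0.896 CPM in TNF replicate 1, with 0 counts in the other 3 TNF libraries. Its log2 fold change was -3.87 ± 1.15 (edgeR adjusted p = 0.015). The call was lost without PBS replicate 2 (-2.82, adjusted p = 0.0678) and with DESeq2 (-3.97, 0.122). Without TNF replicate 1 the fitted change was -8.93 (adjusted p = 0.000133), a value that depends on the prior count, since no TNF count is left.

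Of the hormones known from the distal gut, only Gcg could be tested and it was not called, and each was absent from several libraries. Gcg, the gene of glucagon-like peptides made by L cells, had 4, 81 and 61 counts after PBS (0.247, 4.12 and 3.24 CPM) and 60, 0, 201 and 0 counts after TNF (3.36, 0, 10.8 and 0 CPM). The groups overlapped fully, and the log2 fold change of 0.48 ± 1.70 (edgeR adjusted p = 0.827) turned to -0.04 without PBS replicate 1 and to -1.18 without TNF replicate 3. Pyy, the peptide YY of L cells, had 3 PBS counts and 27 TNF counts, of which 22 lay in TNF replicate 3. Nts, the neurotensin of N cells, had 0 PBS counts and 46 TNF counts, of which 35 lay in TNF replicate 1 and 11 in TNF replicate 3. Against a floor of 3 counts over the PBS group, Nts was at least 12.2-fold higher, and for Pyy the ratio of TNF to PBS was 7.15 (95% exact binomial interval 2.20 to 36.8). Both values lean on 1 library each. Without TNF replicate 1, 11 counts of Nts were left and its bound was 3.94-fold (7.81 to 16.2 with each of the other libraries left out in turn). Without TNF replicate 3 the ratio for Pyy was 1.82 (0.354 to 11.7). When no filter was applied, edgeR gave adjusted p values of 0.000215 for Nts and 0.116 for Pyy. In TNF replicates 2 and 4, each of Gip, Gcg, Sst, Pyy and Nts had 0 counts. Of all 31 members, 28 to 30 were detected in each PBS library, and 30, 20, 24 and 19 were detected in TNF replicates 1 to 4.

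Among the 10 tested genes of hormones and amine synthesis in the list of 31, Tac1 was the only one that rose. It encodes the tachykinins substance P and neurokinin A, known from serotonin cells of the gut and from enteric neurons. Tac1 (ENSMUSG00000061762, GRCm39 chromosome 6, 7554120 to 7565834) had 2.72, 2.09 and 0.318 CPM after PBS and 38.8, 35.6, 32.5 and 57.6 CPM after TNF. Every TNF library was far above every PBS library. The rise was 4.61 ± 0.49 (SE) on the log2 scale (edgeR adjusted p = 6.93e-05) and was called under all 14 alternatives. Tac1 held 0.153 to 0.757% of the summed CPM of the 31 genes after PBS and 28.8 to 39.7% after TNF. The 8 neural and glial markers summed to 3.89 to 4.45 CPM after PBS and 0.589 to 1.90 CPM after TNF, most of it Elavl4 after PBS (mean 2.79 CPM, and 0.498 CPM after TNF). Of the 8 markers, 2 could be tested and 1 of them, Elavl4, was lower. The neuronal genes Tubb3 (13 PBS and 24 TNF counts) and Prph (5 and 9) were too low for the test, and the glial factor Sox10 had 0 counts in every library. The part of neural RNA in the rise of Tac1 was not tested.

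Of the 7 granule genes tested, 3 fell (Pcsk1, Chgb and Scg2), Scg5 rose and 3 were not called, with a median log2 fold change of -1.44. The 4 of 7 called lie near the 59.6% called over all genes, so this count is no result about the granule genes. Pcsk1, the prohormone convertase PC1/3, had 54.4, 47.2 and 28.3 CPM after PBS and 19.1, 20.3, 16.1 and 23.0 CPM after TNF, a fall of 1.14 ± 0.20 on the log2 scale (edgeR adjusted p = 0.00026). All PBS libraries were above all TNF libraries. Chgb, a chromogranin that packs granule cargo, had 34.6, 29.9 and 6.26 CPM after PBS and 4.31, 3.83, 3.80 and 5.43 CPM after TNF. PBS replicate 3 lay just above the TNF range, and the fall of 2.44 ± 0.52 on the log2 scale (edgeR adjusted p = 0.00437) was called in all 14 alternatives, as was that of Pcsk1. Scg2, a secretogranin, had 66 PBS counts and 13 TNF counts and fell by 2.703 ± 0.86 on the log2 scale (edgeR adjusted p = 0.0145), a call lost without PBS replicate 1 (-2.22, adjusted p = 0.0881). Without TNF replicate 1 the change was -3.35.

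Chga, the chromogranin most often used to mark enteroendocrine cells, was not called. It had 24.6, 20.4 and 2.07 CPM after PBS and 7.84, 5.01, 1.55 and 8.83 CPM after TNF, so PBS replicate 3 was below 3 of the 4 TNF libraries. The log2 fold change was -1.44 ± 0.89 (edgeR adjusted p = 0.213), and it was called without PBS replicate 3 (-1.96, adjusted p = 0.0183). Cpe, the carboxypeptidase that trims peptides after cleavage, had 3.77, 6.31 and 2.60 CPM after PBS and 3.86, 0.943, 1.87 and 1.11 CPM after TNF (-1.11 ± 0.48, edgeR adjusted p = 0.0602). It passed without PBS replicate 3 (-1.37, adjusted p = 0.0284), without TNF replicate 1 (-1.68, 0.00342), with no filter on low counts (0.012) and with DESeq2 (0.0386). Scgn, a calcium-binding protein of hormone cells, had 46 PBS counts and 15 TNF counts, with no overlap of the CPM ranges and a fitted log2 change of -1.91 ± 0.81 (edgeR adjusted p = 0.0557). It was called only without TNF replicate 1 (-2.99, adjusted p = 0.00662). Scg3 (34 counts after PBS, 15 after TNF) and Pcsk1n (8 and 8 counts), which encodes an inhibitor of PC1/3, were below the filter, and without it edgeR gave adjusted p values of 0.217 and 0.864.

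Scg5 moved the other way. It encodes 7B2, the chaperone of the convertase PC2. Scg5 (ENSMUSG00000023236, GRCm39 chromosome 2, 113606688 to 113660094) had 1.05, 0.204 and 0.477 CPM after PBS and 7.50, 4.42, 5.30 and 5.96 CPM after TNF. The TNF libraries were all above the PBS libraries, from a base of only 30 PBS counts. The rise was 3.35 ± 0.46 (SE) on the log2 scale (edgeR adjusted p = 2.74e-05). Leaving out PBS replicate 1 gave 4.07, and Scg5 was called in all 14 alternatives. The gene of PC2 itself, Pcsk2, which was looked up after the values of Scg5 were seen, had 8 counts in PBS replicate 2 and 0 in all other libraries.

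Several granule and hormone genes moved in one direction, and the 250 bases before their start sites were read from RefSeq promoter windows (GRCm38.p6), in which 27 of the 31 members had an entry. Insm1, Pax4, Slc18a1 and Cpe had none. The cAMP response element (CRE), the letters TGACGTCA on either strand, is a textbook element of neuroendocrine promoters. The 27 members had 34 windows, as some have several starts. The CRE occurred in 5 of the 34 windows (1 each of Sst, Chgb, Scg2, Pcsk1 and Pax6) and in 1.55% of all 32851 windows of this length. All 5 genes were called lower, as were 13 of the 21 tested members with a window and 30.1% of all genes, and the calls of Sst and Scg2 are each lost without 1 library. Their windows are shown to place the element, 5′ to 3′ in the direction of the gene, with capitals for TGACG or its complement CGTCA. A run of 8 capitals is the full CRE, in which both overlap.
Sst (chr16:23890845-23891094, minus strand): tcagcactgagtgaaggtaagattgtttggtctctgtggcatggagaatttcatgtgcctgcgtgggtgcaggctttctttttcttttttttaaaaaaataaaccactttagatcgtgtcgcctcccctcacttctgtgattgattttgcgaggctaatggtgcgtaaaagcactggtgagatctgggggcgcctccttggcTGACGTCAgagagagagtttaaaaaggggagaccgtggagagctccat
Chgb (chr2:132781392-132781641, plus strand): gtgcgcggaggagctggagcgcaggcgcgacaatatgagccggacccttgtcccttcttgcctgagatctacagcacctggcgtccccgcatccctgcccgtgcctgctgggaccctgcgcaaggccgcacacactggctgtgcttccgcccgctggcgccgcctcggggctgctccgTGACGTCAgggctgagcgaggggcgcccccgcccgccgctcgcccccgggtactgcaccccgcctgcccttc
Scg2 (chr1:79440027-79440276, minus strand): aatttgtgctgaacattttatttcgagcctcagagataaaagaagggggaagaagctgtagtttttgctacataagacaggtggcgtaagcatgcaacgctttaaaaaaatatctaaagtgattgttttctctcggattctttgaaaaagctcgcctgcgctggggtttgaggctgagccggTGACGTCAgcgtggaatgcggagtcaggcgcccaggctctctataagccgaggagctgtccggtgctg
Pcsk1 (chr13:75089607-75089856, plus strand): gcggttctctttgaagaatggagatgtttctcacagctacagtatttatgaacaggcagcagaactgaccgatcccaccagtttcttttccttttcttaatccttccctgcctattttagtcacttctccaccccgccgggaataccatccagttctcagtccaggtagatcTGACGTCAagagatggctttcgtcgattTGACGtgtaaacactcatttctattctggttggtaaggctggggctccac
Pax6 (chr2:105668646-105668895, plus strand): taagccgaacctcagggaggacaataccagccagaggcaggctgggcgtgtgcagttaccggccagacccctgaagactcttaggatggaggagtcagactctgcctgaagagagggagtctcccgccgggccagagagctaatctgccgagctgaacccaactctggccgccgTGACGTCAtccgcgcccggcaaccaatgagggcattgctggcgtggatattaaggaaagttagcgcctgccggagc

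Counted from the first base before the start as -1, the full CRE began at -48 in Sst, -72 in Chgb, -68 in Scg2, -78 in Pcsk1 and -76 in Pax6. The window of Pax6 is 1 of its 2 windows, and the other held no full CRE. The half-site TGACG occurred in 15 of the 34 windows, including those with the full CRE, and in 17.8% of all windows. Chga, which was not called, and both genes that rose are shown for comparison, with the half-site at -44 in Chga, at -197 and -43 in Tac1 and at -175 in Scg5.
Chga (chr12:102554691-102554940, plus strand): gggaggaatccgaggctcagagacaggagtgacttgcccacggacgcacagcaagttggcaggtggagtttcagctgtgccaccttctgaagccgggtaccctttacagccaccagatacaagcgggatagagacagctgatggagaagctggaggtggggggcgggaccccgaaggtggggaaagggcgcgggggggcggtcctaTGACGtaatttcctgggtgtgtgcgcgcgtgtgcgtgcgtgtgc
Tac1 (chr6:7554811-7555060, plus strand): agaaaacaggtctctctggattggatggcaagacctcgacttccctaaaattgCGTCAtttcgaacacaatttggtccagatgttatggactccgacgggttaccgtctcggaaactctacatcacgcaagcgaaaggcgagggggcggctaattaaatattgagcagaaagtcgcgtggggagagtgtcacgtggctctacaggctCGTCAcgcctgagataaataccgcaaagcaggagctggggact
Scg5 (chr2:113829092-113829341, minus strand): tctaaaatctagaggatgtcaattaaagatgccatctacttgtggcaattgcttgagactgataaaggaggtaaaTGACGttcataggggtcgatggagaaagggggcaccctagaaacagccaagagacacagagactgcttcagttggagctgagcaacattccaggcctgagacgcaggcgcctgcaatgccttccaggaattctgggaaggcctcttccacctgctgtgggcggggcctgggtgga

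None of the windows of Chga, Tac1 and Scg5 held the full CRE. It was equally absent from the windows of Nkx2-2, Ddc, Gip, Ghrl, Isl1, Rfx6, Neurog3 and Sct, which were all called lower. The element therefore does not separate the genes that fell from the others. The letters CAGATG, an E-box of the kind bound by Neurog3 and Neurod1, were found in the windows of Cck, Gcg, Nkx2-2, Sct and Tac1 (5 of the 34 windows, near the 14.4% of all windows), and in Nkx2-2 the match began at -220. The TATA box letters TATAAA were present in 3 of the 34 windows, those of Ddc, Gcg and Sct (12.4% of all windows). All motifs were sought on both strands. The TATAAA match of Ddc and the CAGATG match of Nkx2-2 lay on the strand opposite to the gene. The kappaB motif was found in 2 of the 34 windows, those of Chgb and Pax6 (7.25% of all windows), and in neither gene that rose. These matches describe letters in a window and not sites in use, and windows of one gene can overlap.

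The members differed in how evenly they were present among the control mice. Of the 21 members with at least 100 counts over all libraries, 7 had a coefficient of variation (CV) of at most 25% among the PBS libraries (Rfx6, Isl1, Nkx2-2, Slc18a1, Cck, Ddc and Gip), 4 lay between 25 and 50% and 10 were above 50%. The median CV was 44.9% over these 21 members and 14.5% over all tested genes with PBS counts. From the PBS counts alone, counting error would give a CV of 2.82% for Slc18a1, 15.2% for Neurog3 and 31.6% for Scg5. Rfx6, Isl1 and Nkx2-2 had CVs of 1.40%, 8.37% and 9.33%, while Ghrl, Sst and Tph1 had 87.2%, 89.8% and 89.8%. For Rfx6, Isl1 and Cck (CV 16.0%) the CV was below the 15.6%, 14.7% and 17.3% of counting error, so no spread between mice beyond counting could be seen for them. Among the same 21 genes, PBS replicate 3 was the lowest library for 15 and the highest for 0, and PBS replicate 1 was the highest for 13. Chga, Tph1, Tac1, Ghrl and Chgb, all lowest in PBS replicate 3, were 5.53 to 11.9 times higher in the highest than in the lowest PBS library. Gcg differed most, 16.7-fold, and was lowest in PBS replicate 1.

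**Figure D3:**
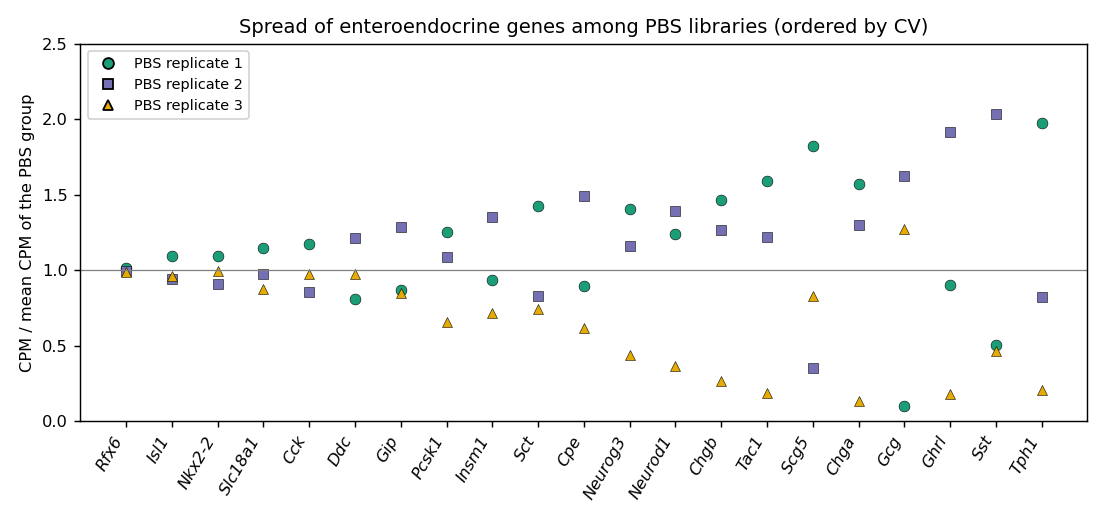
CPM of each PBS library divided by the PBS mean for the 21 enteroendocrine genes with at least 100 counts, ordered from the lowest to the highest CV (y axis, ratio to the mean; 1 marker per library). The 3 markers nearly coincide for Rfx6, Isl1 and Nkx2-2, and PBS replicate 3 falls to the bottom for most genes from Pcsk1 onwards.

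Per kilobase of annotated exons (GENCODE M39), the order of levels also changed. After PBS, Ghrl (35.3 CPM per kb), Gip (29.5) and Sct (29.3) led, and their library ranges overlapped (6.38 to 67.7, 24.97 to 37.9 and 21.8 to 41.8 CPM per kb, in this order). Slc18a1 (10.3 CPM per kb), Nkx2-2 (7.99), Chgb (5.77) and Pcsk1 (5.29) followed. After TNF, Sct led with 17.4 CPM per kb, Tac1 was next with 8.93 and Slc18a1 followed with 2.94, while Ghrl stood at 0.779 and Nkx2-2 at 0.123. The exon length counts all annotated isoforms, so a gene whose isoforms differ in exons appears lower on this scale than the isoform in use would.

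A wider list of 66 other enteroendocrine genes was read from the same fit. Of these, 39 passed the filter, with 23 lower and 9 higher (30.1% and 29.5% over all genes) and a median log2 fold change of -1.46. The 12 further transcription factors that were tested gave 11 lower and 1 higher. By the naming rule, the strongest falls were those of Onecut2 (-5.76 ± 0.64), Pdx1 (-4.75 ± 0.57), Vwa5b2 (-3.43 ± 0.49), Myt1 (-3.34 ± 0.90), Peg3 (-3.06 ± 0.49) and Foxa2 (-3.04 ± 0.20), all with an edgeR adjusted p of at most 0.00621. Pdx1 is a factor of the duodenum and pancreas and Foxa2 a pioneer factor of gut endoderm. The strongest rises were those of Adm (4.55 ± 0.82), encoding adrenomedullin, and Iapp (3.09 ± 0.62), encoding amylin (edgeR adjusted p of at most 0.000643). Among 17 further granule genes tested, 8 were lower and 4 higher, and among 8 receptor and channel genes of nutrient sensing, 4 were lower and 2 higher, against 59.6% of all genes called in either direction. The 2 further hormone genes tested were Adm and Iapp.

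Marker lists of other cells and of position along the gut were read in the same way, beside the 30.1% of all genes that were lower and the 29.5% that were higher. The 9 tuft cell markers summed to 1660 to 2749 CPM after PBS and 339 to 869 CPM after TNF, with 9 of 9 lower, and the 10 enterocyte markers to 46.4 to 141 CPM and 6.60 to 10.4 CPM, with 5 of 6 tested genes lower. The 8 goblet cell markers summed to 11300 to 20700 CPM and 9440 to 10980 CPM (4 lower and 1 higher of 8, near the 59.6% called over all genes), and the 8 leukocyte markers to 23.2 to 31.3 CPM and 17.7 to 27.8 CPM, with 1 lower (Ptprc) and 1 higher (S100a9) of 3 tested. Cd3e was at 0 in all libraries. S100a9 and S100a8, abundant in neutrophils, had 0 counts in all PBS libraries and 399 and 32 counts after TNF, at least 106-fold and 8.48-fold higher against a floor of 3 counts over the PBS group. Of the 8 genes of proximal position, which include Pdx1, 5 of 6 tested were lower and the sum went from 178 to 216 CPM to 33.5 to 45.7 CPM. Of the 10 genes of distal position, 3 of 4 tested were higher and the sum went from 27.6 to 45.3 CPM to 68.7 to 75.8 CPM, of which Hoxb9 made up a mean of 9.59 CPM after PBS and 44.6 CPM after TNF. The list did not move as one, since Osr2 fell (-0.94, edgeR adjusted p = 0.000125) and the untested genes Cubn (136 PBS counts, most of them in PBS replicate 2), Slc51a (27) and Hoxa10 (7) had 0 counts after TNF, with 39 and 2 counts for Fabp6. The untested Slc10a2 went the other way, with 0 PBS and 34 TNF counts, at least 9.01-fold higher against a floor of 3 counts over the PBS group. Fgf15 had 2 PBS and 5 TNF counts. PBS replicate 2, the highest library for Ghrl, Gip and Sst, was also the highest PBS library for the enterocyte, tuft, distal and leukocyte sums. The enteroendocrine members without Tac1 and Scg5, left out because they rose, summed to 207 to 377 CPM after PBS and 69.6 to 88.3 CPM after TNF, and this choice by itself lowers the TNF sum. The part of cell composition or gut position in the changes of the members was not tested.

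**Figure D4:**
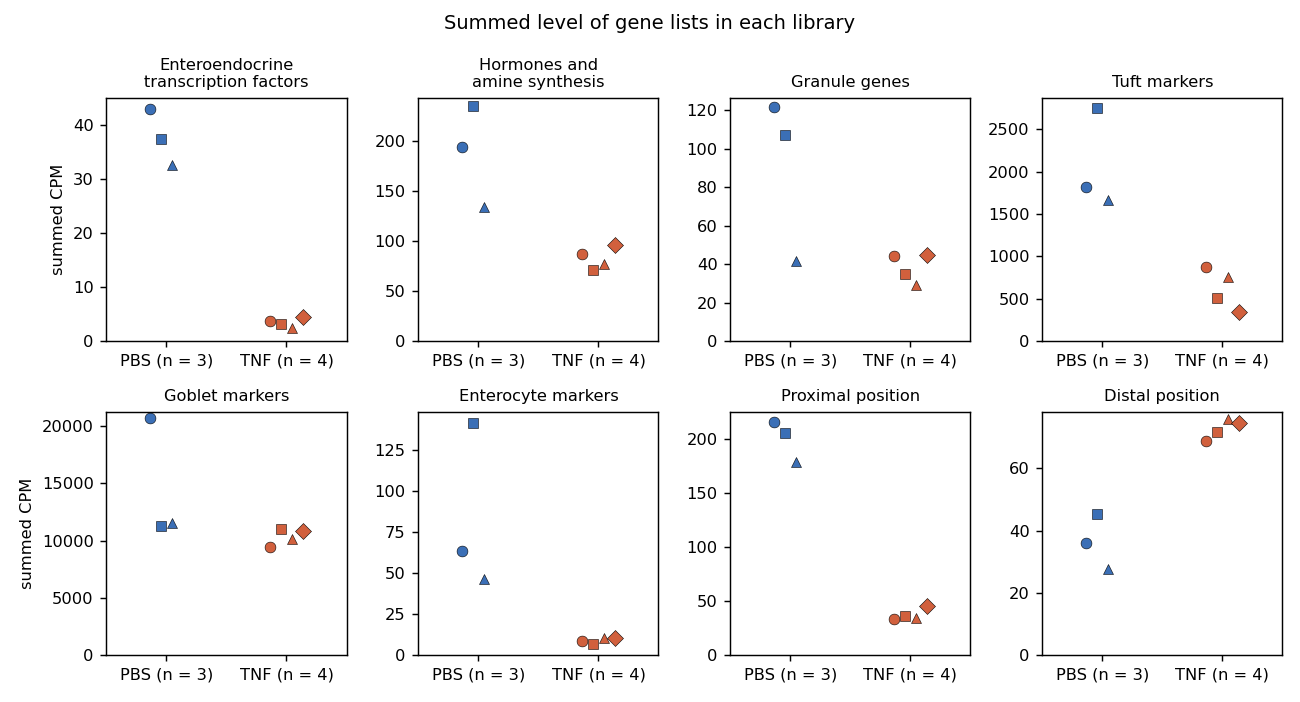
Summed CPM of gene lists in each library (y axis, from 0; blue, PBS, n = 3; orange, TNF, n = 4; marker shape gives the replicate number). The transcription factor, hormone, tuft, enterocyte and proximal sums are lower in all TNF libraries, and so, narrowly, is the goblet sum. The distal sum is higher in all TNF libraries, and PBS replicate 3 lies beside the TNF libraries for the granule genes.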

How the data were processed

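RNA-seq was available for PCs sorted from mice 15 h after PBS (n = 3) or TNF (n = 4). The authors deposited raw counts, whole numbers of reads per Ensembl gene with 1 column per library. The submitters' processing notes name FastQC, Trimmomatic (0.39), STAR (2.7.10a) and DESeq2 and the builds mm10 and mm39, without their roles. For the annotation, the counting step and the strand setting, nothing is stated in the sources used here, and counts of overlapping genes are therefore uncertain. Libraries held 15511455 to 19193721 counts.

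Symbols, GRCm39 coordinates and exon lengths were taken from GENCODE M39 by identifier (98.8% of identifiers found). Differential expression was tested across all genes in edgeR 4.0.16 (R 4.3.3) by its quasi-likelihood F-test (robust, two-sided) after filterByExpr and TMM scaling, for TNF against PBS without covariates. SEs were derived from the fitted change and its F statistic. The alternatives were other scalings, filters, DESeq2 (1.42.0), the replicate number as a block, and leaving out each library. Leaving libraries out of the bounds and count ratios was added after seeing the data. The fit was tested on simulated data. Promoter windows were those of RefSeq (GRCm38.p6), kept apart from GRCm39 coordinates.

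The members, lists, motifs and tests were chosen with earlier results of these data known. All members were named, with the value of every library mainly for those with at least 100 counts. Of the wider list, the rule named the 6 strongest falls and 3 strongest rises among called genes averaging 1 CPM or more, of which 1 rise is not reported here. The marker lists of proximal and distal position had been chosen in an earlier examination of these data, after values were seen. Mice differed between libraries per the series description.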

Additional observations from a re-analysis of the deposited data

Results flagged for a closer look

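Single TNF libraries that stood far from the other 3 for a gene, relative to the range of all 4, were sought. Among the 24 members tested, this held for 4 genes, each time through a high value in TNF replicate 1. Chance gives about 1 such case in 20 sets of 4 normally spread values, so some flags among the 24 members can arise by chance. The rate need not hold for TNF values at or near 0, as in these 4 genes. Where the other 3 libraries are at 0, as for Pax6 and Sst, any count stands apart by construction. Gip had 5.37 CPM in this library against 0, 0 and 0.482 CPM in the other TNF libraries, and Sst had 0.896 CPM against 0 in all 3. Isl1 had 0.392 CPM against 0, 0 and 0.0589 CPM, and Pax6 had 0.112 CPM, which is 2 counts, against 0 in all 3. TNF replicate 1 also had the highest tuft marker sum of the TNF group (869 CPM), and it was the TNF library in which the most members were detected (30 of 31).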

How the results depend on the processing

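The number of members called lower was 15 and ran from 10 to 19 when single libraries were left out, and from 13 (at least 1 CPM in 3 libraries) to 20 (no filter on low counts) under the other settings. The number called higher was 2, with 3 when no filter was applied. For the wider list, 19 to 29 genes were lower and 7 to 10 higher. With library totals as the only scaling, the median over all tested genes shifted from 0.0017 to -0.16 (log2) and the whole-table calls went from 4229 higher and 4314 lower to 3142 and 4614, with 15 members lower and 2 higher as before. Over 333 values of single members, 298 kept direction and side of the threshold, 19 lost the call, 14 gained it and 2 changed sign, both of Gcg (-0.04 without PBS replicate 1 and -1.18 without TNF replicate 3, within a leave-one-out range of -1.18 to 1.01). The cause of these changes was not tested. Same-numbered libraries did not deviate together (correlations of -0.299, -0.0314 and -0.174, and 0 of 3 PBS libraries were closest to the TNF library of their number), so the numbers were not taken as pairs. With the replicate block, 15 members were lower and 2 higher, Insm1 (-1.14, adjusted p = 0.112) and Gip (-4.29, 0.0799) lost their calls, Neurod1 (-2.33, 0.0391) and Chga (-1.47, 0.00267) gained them, and 7131 genes were called in all against 8543. Of the 7 members below the filter, which had 16 to 69 counts in all, Fev, Pax4, Lmx1a and Nts were called without it and Scg3, Pcsk1n and Pyy were not.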
